A study of Mus musculus with 10 samples.

Results

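Py2T-LT cells that received bone morphogenetic protein 2 (BMP2) together with a MEK inhibitor were compared with Py2T-LT cells that received the MEK inhibitor alone, across all expressed genes, by RNA sequencing. The members are 4 of the 10 libraries of the series, chosen by their treatment labels: 2 with BMP2 and the inhibitor and 2 with the inhibitor only. Py2T-LT is a long-term mesenchymal derivative of a mouse mammary tumour cell line, and all 4 libraries were made from cells harvested on day 7, each from 1 of 2 independent experiments. They are called BMP2 library 1 and 2 and inhibitor library 1 and 2. Both groups carried the MEK inhibitor, so the comparison shows what differed once BMP2 was added to cells whose MEK to ERK signalling was already targeted. The doses that the protocol gives as usual are 200 ng/ml for BMP2 and 40 µM for the inhibitor PD98059. That protocol has cancer cells receive BMP2 for 3 days and then BMP2 with 2 µM rosiglitazone, a PPARγ agonist, for 4 days, while the labels of these libraries do not name rosiglitazone. An effect of BMP2 and an effect of rosiglitazone in the same medium therefore cannot be told apart here. Cells with BMP2 alone are not analysed here. The libraries compared come from a single cell line, and levels in the 2 untreated Py2T-LT control libraries are given where they help to place a value. The spread behind the p-values was estimated over all 10 libraries of the series. Besides the Py2T-LT libraries these are from another line, MTΔECad, 2 with rosiglitazone and 2 controls.

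BMP ligands bind paired type I and type II receptor kinases, which phosphorylate SMAD1, SMAD5 and SMAD9. These enter the nucleus with SMAD4 and switch on a set of early target genes, among them the Id genes, which encode inhibitors of basic helix-loop-helix transcription factors, and genes for the pathway's own inhibitors. In mesenchymal cells the pathway is known for directing cells towards bone, cartilage or fat, and in many epithelial and tumour cells for slowing division.

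The promoters shown here belong to 4 groups whose called members all moved 1 way: genes of mitosis and of DNA replication, which fell, and BMP target transcription factors and antagonists, which rose. Within each group they are the called genes with the largest fold changes whose 120-base stretch, ending no later than base 30 after the start site, holds the letters of interest in capitals. In the first 3 the capitals mark the cell cycle homology region (CHR, TTTGAA or its complement TTCAAA) and CCAAT boxes (CCAAT or ATTGG), in the next 2 an E2F site (TTTGGCGC, TTTCCCGC, TTTCGCGC or TTTGCCGC on either strand), and in the last 3 the core of the BMP response element (GGCGCC, the same on both strands). All are from RefSeq on GRCm38.p6, written 5′ to 3′ along the gene's own strand.
Espl1 (chr15:102296172-102296291, + strand): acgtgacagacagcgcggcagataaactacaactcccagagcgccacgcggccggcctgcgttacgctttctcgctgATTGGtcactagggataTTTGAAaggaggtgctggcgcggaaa
Ube2c (chr2:164769806-164769925, + strand): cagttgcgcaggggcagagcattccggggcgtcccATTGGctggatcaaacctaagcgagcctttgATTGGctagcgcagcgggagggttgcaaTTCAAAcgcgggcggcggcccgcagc
Ttk (chr9:83834599-83834718, + strand): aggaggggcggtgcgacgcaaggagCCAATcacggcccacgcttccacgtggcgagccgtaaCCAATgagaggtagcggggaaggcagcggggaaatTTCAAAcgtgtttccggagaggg
Uhrf1 (chr17:56304063-56304182, + strand): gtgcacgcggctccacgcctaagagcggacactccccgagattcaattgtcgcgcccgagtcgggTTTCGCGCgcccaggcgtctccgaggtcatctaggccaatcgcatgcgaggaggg
Mcm5 (chr8:75109268-75109387, + strand): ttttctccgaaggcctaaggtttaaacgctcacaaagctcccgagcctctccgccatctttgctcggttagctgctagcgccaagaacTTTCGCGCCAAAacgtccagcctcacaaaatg
Id4 (chr13:48260874-48260993, + strand): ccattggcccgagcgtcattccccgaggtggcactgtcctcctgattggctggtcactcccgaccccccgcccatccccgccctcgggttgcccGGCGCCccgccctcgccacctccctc
Gata2 (chr6:88198574-88198693, + strand): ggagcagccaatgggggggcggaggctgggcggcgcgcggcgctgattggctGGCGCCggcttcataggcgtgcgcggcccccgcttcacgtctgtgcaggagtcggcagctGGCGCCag
Grem1 (chr2:113758701-113758820, - strand): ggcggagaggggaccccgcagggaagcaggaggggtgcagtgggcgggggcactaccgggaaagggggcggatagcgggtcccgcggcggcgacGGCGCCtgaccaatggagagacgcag
In Espl1 the CHR letters lie 27 to 22 bases before the start site with a CCAAT box 44 to 40 bases before it. Ube2c shows the same order, with CHR letters 29 to 24 bases before the start and CCAAT boxes upstream of them. In Mcm5 the capitals are a pair of E2F matches on opposite strands that overlap. How often these letters occur in each group is given below with the group's values.

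The libraries held 14659987 to 17249199 counts. Levels are counts per 1000000 counts of a library (CPM) after scaling of library sizes by the trimmed mean of M-values (TMM), and the 2 values given for a group are replicates 1 and 2 in that order. With 1 count worth at most 0.067 CPM, the floor of 3 counts per library was at most 0.201 CPM. Log2 fold changes are BMP2 plus MEK inhibitor minus MEK inhibitor, with their standard error (SE). A gene rose or fell where edgeR's quasi-likelihood test gave a Benjamini-Hochberg adjusted p under 0.05 over 13149 genes tested, so each p-value reflects how far the 2 experiments of a group lay apart, in all 5 groups of the series together. Replicate libraries correlated across genes at 0.9936 with BMP2 and 0.9938 without it (Pearson, log2 CPM), and libraries of different groups at 0.9543 to 0.9558, where genes are not independent replicates.

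With BMP2, 2356 genes rose and 2552 fell, which is 17.9% and 19.4% of the genes tested and 37.3% together. These shares are the background for every count of list members below. The 2 groups did not overlap in 67.2% of genes tested, with BMP2 higher in 4379 and lower in 4455. Where a list is given with 0 rises or 0 falls by edgeR, 0 of its members passed an unadjusted p under 0.05 in that direction and DESeq2 called 0, apart from 1 Hox gene and 1 nuclear RNA at an unadjusted p under 0.05. The median log2 fold change over all genes was 0.01, and the quartiles were -0.26 and 0.24. TMM scaling sets the middle of the distribution near 0, so this median cannot show whether most genes shifted together. With library totals as the only scaling it was -0.05. Of the called genes, 2032 changed by less than 0.5 on the log2 scale, 668 rose by more than 1 and 891 fell by more than 1. At the far ends, 56 genes rose and 40 fell by more than 4. Among the 2382 genes over 100 CPM, rises outnumbered falls at 648 to 455, and past 1 on the log2 scale at 105 to 40. From 10 to 100 CPM the order was the other way, with 1163 rises and 1399 falls among 6802 genes.

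**Figure D1:**
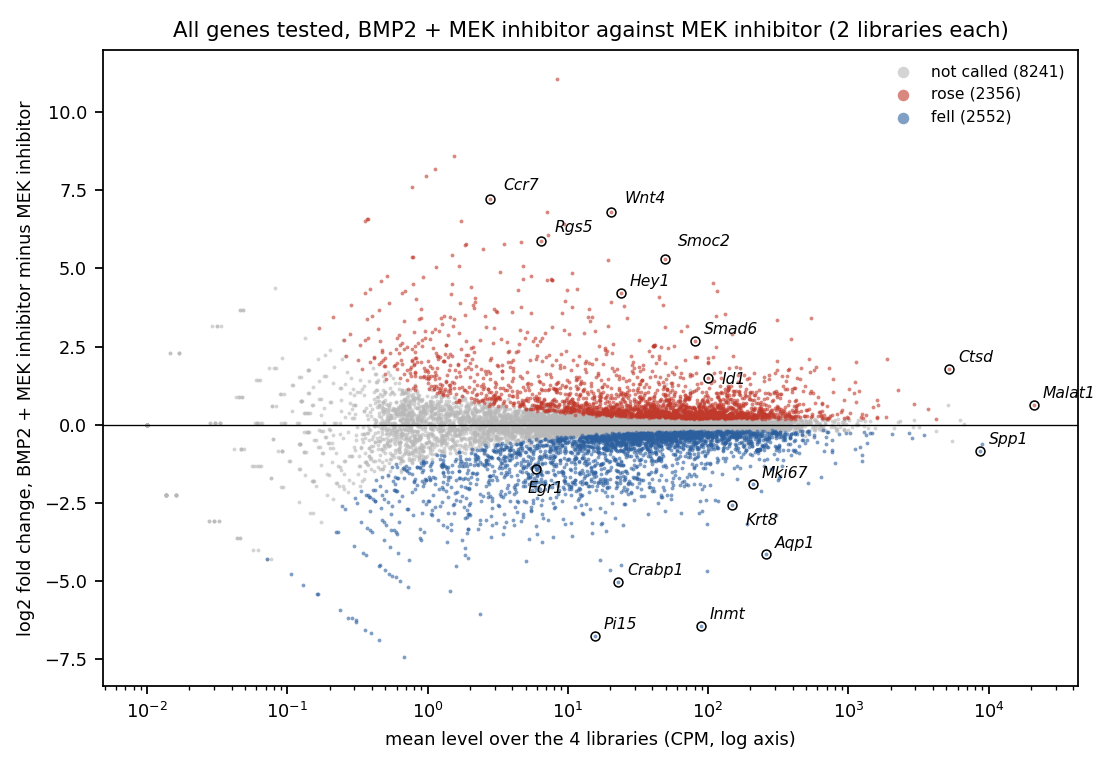
Log2 fold change (BMP2 plus MEK inhibitor minus MEK inhibitor) against the mean level over the 4 libraries (CPM, log axis) for each of the 13149 genes tested, 1 point a gene. Red points rose (2356), blue points fell (2552) and grey points were not called; means under 0.01 CPM are drawn at 0.01. Ctsd and Malat1 lie at the far right among the rises, and Spp1 among the falls.

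The cells were checked against 11 marker genes of mesenchymal mammary tumour cells, of which 4 rose and 5 fell, with 2 rises without BMP2 library 1. Vim, the mesenchymal intermediate filament gene, stood at 3140 and 3050 CPM with BMP2 and at 3990 and 3730 CPM without it, and Epcam, an epithelial adhesion gene, stayed under 1 CPM in each of the 4 libraries. Other epithelial markers were present, with Krt8, Krt18 and Cdh1 at over 10 CPM in each of the 4 libraries. Krt8, Krt18, Prrx1, Twist1 and Vim fell, whereas Cdh1, Cdh2, Zeb1 and Zeb2 rose, so the markers of neither state moved 1 way. Of the haematopoietic markers, Cd79a had 0 counts and Itgam 3 counts in 1 library, while the list's summed level was 9.31 and 7.91 CPM with BMP2 against 17.1 and 13.5 CPM without it, most of it Cd14 and Cd68, which both fell. Of these 4 tested members 2 fell and 0 rose, and the Cd14 fall was not called without BMP2 library 2 (adjusted p = 0.146) or inhibitor library 1 (adjusted p = 0.162). Endothelial markers summed to 0.469 and 1.45 CPM against 2 and 2.74 CPM, with 1 of 2 tested members falling. That member, Tek, was not called without BMP2 library 1 (adjusted p = 0.103) or inhibitor library 2 (adjusted p = 0.0863). Vwf had 0 counts with BMP2 and 1 in each library without it. Skeletal muscle markers summed to at most 1.45 CPM in any of the 4 libraries, and 0 of 1 tested member changed. Because these are bulk samples, fewer cells of a type and less RNA per cell cannot be told apart.

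Of 10 tested nuclear and non-polyadenylated RNAs 2 rose and 0 fell. The share that rose, 20%, was near the 17.9% of all genes tested. The summed level of the list was 38900 and 34800 CPM with BMP2 and 28100 and 26500 CPM without it. Most of this was Malat1, a long nuclear RNA, at 28900 and 22500 against 16900 and 15900 CPM, a rise of 0.65 ± 0.1 (adjusted p = 2.49e-05). Neat1, the scaffold of nuclear paraspeckles, rose by 0.3 ± 0.08, a call lost without BMP2 library 1 (adjusted p = 0.158) and inhibitor library 2 (adjusted p = 0.0938). The other 8 tested RNAs of this kind were not called. The part of this shift in the other results was not tested.

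Genes known as transcriptional targets of BMP signalling rose almost as a block on day 7, and whether the rises were direct was not tested. Of 21 tested transcription factor genes known as BMP targets, 18 rose and 0 fell, with a median log2 fold change of 1.44. Id1 (chr2:152736251-152737410, GRCm38.p6) stood at 144 and 152 CPM with BMP2 and at 55.5 and 48.3 CPM without it, a rise of 1.51 ± 0.12 (adjusted p = 2.08e-08). Id2 was at 558 and 499 against 263 and 254 CPM, and Id3 at 225 and 269 against 77.1 and 60.6 CPM. Id4 went furthest among the Id genes, from 7.04 and 6.03 to 31.5 and 30.7 CPM (2.25 ± 0.14). In each of these 4 genes both libraries with BMP2 lay above both without it, and above both untreated controls, where Id1 was at 43.7 and 36.8 CPM. Over all genes tested, the groups with and without BMP2 did not overlap in 67.2%.

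Hey1 (chr3:8663359-8667038), a repressor that both BMP and Notch signals can induce, had the largest rise of the list. It went from 2.2 and 2.63 to 44.5 and 46.3 CPM, a log2 fold change of 4.22 ± 0.16 (adjusted p = 2.89e-14), with 2.28 and 2.5 CPM in untreated cells. Gata3, a regulator of luminal mammary cells that also restrains fat formation, stood at 191 and 200 against 88.9 and 83 CPM. Runx2, the master factor of bone formation, stood at 48.2 and 50.6 against 17.6 and 19.2 CPM, and rose by 1.42 ± 0.14. Dlx5, a homeobox factor of bone and placenta, was counted 61 times with BMP2 and 8 times without, which is 8 times as often (95% interval from counting error, 3.82 to 19.4). Its fitted log2 fold change was 2.96, and 4.02 without inhibitor library 1 and 2.27 without inhibitor library 2. Among the members that were not called were Dlx3 (-0.06 ± 0.69) and Tbx2 (1.29 ± 0.88), at under 0.5 CPM in each of the 4 libraries and named here after their values were seen.

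The pathway's own inhibitors formed the other rising group. Of 16 tested antagonists and inhibitors 9 rose and 0 fell, with a median of 0.53. Smad6 (chr9:63953076-64022085), an inhibitory SMAD that competes for the activated receptors, stood at 122 and 156 CPM with BMP2 against 23.4 and 20.2 CPM without it (2.68 ± 0.13, adjusted p = 1.21e-11). Smad7, the other inhibitory SMAD, was at 170 and 202 against 61.4 and 54.2 CPM (1.69 ± 0.11). Nog, which encodes the secreted BMP trap noggin, stood at 26.2 and 36.3 against 4.72 and 6.68 CPM (2.45 ± 0.23). The lowest library with BMP2 was thus above the highest without it for each of these inhibitors, where 67.2% of all genes tested showed no overlap in 1 direction or the other.

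Crim1, a membrane protein that holds BMPs at the cell surface, stood at 1380 and 1390 against 612 and 647 CPM (1.14 ± 0.08). Fst, which encodes the activin and BMP binding protein follistatin, was at 31.6 and 31.5 against 14.2 and 15 CPM. Twsg1, a modulator of the antagonist chordin, showed no call at 229 and 208 against 239 and 236 CPM (-0.12 ± 0.07, adjusted p = 0.203). Without BMP2 library 1, the 9 rises stayed and 1 fall was added.

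Ligands and receptors did not move as a group. Of 7 tested BMP ligand genes, 2 rose and 3 fell. Bmp4 was at 101 and 113 CPM with BMP2 and at 51 and 51.1 CPM without it (1.07 ± 0.08), and Bmp1, which encodes a protease of procollagens rather than a true BMP, rose by 0.52 ± 0.08. Bmp2 itself, whose protein was the agent added, stood at 0.469 and 1.05 CPM against 2.78 and 1.7 CPM. Its fall of 1.5 ± 0.42 on the log2 scale (adjusted p = 0.00893) was not called without BMP2 library 1 (-1.08, adjusted p = 0.11) or without inhibitor library 1 (-1.12, adjusted p = 0.114), and was -2.22 without BMP2 library 2. Bmp3, a ligand that opposes other BMPs, was counted 4 times with BMP2 and 103 times without, a ratio of 0.0408 (95% interval from counting error, 0.0109 to 0.108). Its fitted log2 fold change of -4.53 was -5.54 without BMP2 library 1 and -3.87 without BMP2 library 2. Gdf5, a ligand of joint formation, was counted 3 times against 28 times, a ratio of 0.112 (0.0219 to 0.364).

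Among 13 receptors, co-receptors and SMADs, 4 rose and 3 fell. The signal-carrying Smad9 rose by 1.24 ± 0.15, from 8.59 and 8.87 to 21 and 20.5 CPM, and Smad1 by 0.58 ± 0.09. The type I receptor gene Bmpr1a stood at 394 and 362 against 257 and 274 CPM, a rise of 0.51 ± 0.08. The co-receptor genes Rgma and Rgmb fell by 1.21 ± 0.18 and 1.16 ± 0.1 on the log2 scale. Bmpr1b, another type I receptor gene, fell by 1.29 ± 0.44 from 1.36 and 1.26 to 0.67 and 0.407 CPM, but it was not called without BMP2 library 2 (-0.95, adjusted p = 0.219), without inhibitor library 1 (adjusted p = 0.113) or 2 (adjusted p = 0.0881), or by DESeq2 (adjusted p = 0.214).

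**Figure D2:**
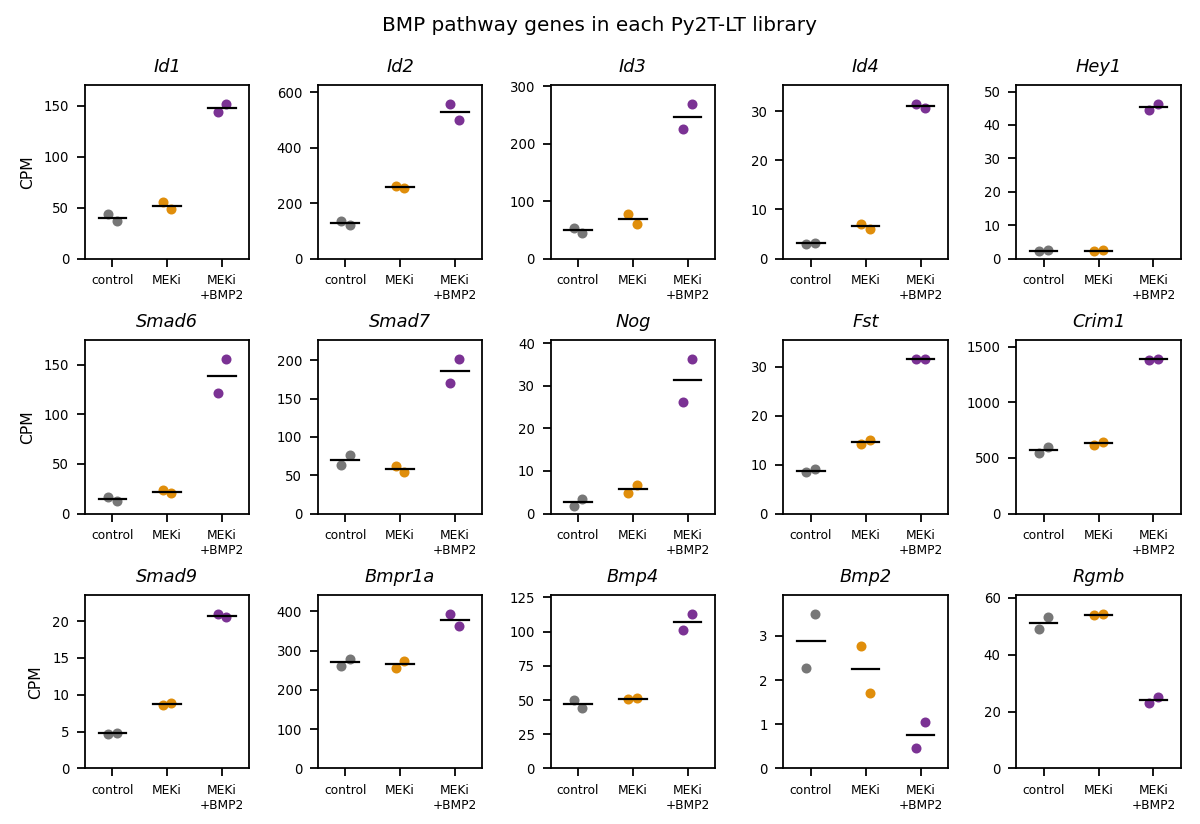
CPM of 15 named genes of the BMP pathway by Py2T-LT library, 1 point each, with a black line at the mean of the 2 libraries, for untreated controls, MEK inhibitor (MEKi) and MEK inhibitor with BMP2; each axis starts at 0 and has its own scale. Hey1 is near 0 in the 4 libraries without BMP2, whereas Bmp2 is lowest with BMP2.

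The letters of the BMP response element core stood in 6 of 15 promoters of the target transcription factors (40%) and in 4 of 11 promoters of the antagonists (36.4%), where a promoter runs from 250 bases before to 50 bases after the start. These promoters cover only 13 of the 21 tested target genes and 11 of the 16 tested antagonists. All 32851 RefSeq promoters held the letters at 11.9%, and the 13188 promoters of genes tested here at 21%. The short SMAD box (GTCT on either strand) was found in 73.3% and 90.9% of the 2 groups' promoters and in 85.7% of the promoters of genes tested. These shares describe letters in this window and were not tested.

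TGF-β pathway genes, which use the other branch of SMADs, split in direction. Of 18 tested, 8 rose and 6 fell, with a median of -0.01. The ligand gene Tgfb3 was at 508 and 500 against 174 and 171 CPM and the receptor gene Tgfbr1 at 375 and 345 against 129 and 144 CPM. The opposite direction was taken by Tgfbr3, the co-receptor betaglycan, which fell from 111 and 105 to 29.9 and 25.9 CPM, and by Ccn2, the connective tissue growth factor gene, which fell from 468 and 485 to 282 and 260 CPM. The groups overlapped in none of these genes, and did not overlap in 67.2% of all genes tested.

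Genes of the dividing cell fell more uniformly than any other group described here. All 59 tested genes of mitosis and the spindle fell, 56 of them by more than 1 on the log2 scale, with a median of -1.87. Mki67 (chr7:135689784-135716450), a marker of cycling cells, stood at 89.9 and 85.7 CPM with BMP2 against 318 and 339 CPM without it, and Top2a, the topoisomerase that disentangles chromosomes, at 164 and 152 against 480 and 497 CPM. Anln, which builds the cleavage furrow, fell from 381 and 398 to 92.5 and 87.6 CPM (-2.11 ± 0.08, adjusted p = 1.91e-14). Espl1, the separase gene whose promoter is shown above, had the largest fall of the list, from 24.2 and 22.1 to 3.35 and 4.54 CPM (-2.54 ± 0.16). The smallest fall was that of the checkpoint gene Bub3, at -0.36 ± 0.08. Every one of the 59 was also called without any 1 of the 4 libraries and by DESeq2.

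Levels with BMP2 were also below those of untreated cells for the named examples: Mki67 was at 237 and 260 CPM and Anln at 266 and 249 CPM in control cells. CHR letters were found in 36 of 55 promoters of these mitotic genes (65.5%, over 49 genes matched to the promoter table) and in 12.2% of the promoters of genes tested. CCAAT boxes stood in 41 of the 55 (74.5%) and in 38% of the promoters of genes tested. Both motifs together occurred in 31 of the 55 (56.4%) and in 5.03% of the promoters of genes tested. CHR letters were most frequent in the 25 bases from the start site onwards, in 27.3% of mitotic promoters against 0.834%, and CCAAT boxes 75 to 51 bases before it, in 29.1% against 9.14%. The list was known to fall before its promoters were searched, and a match is no evidence that a factor binds there.

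**Figure D3:**
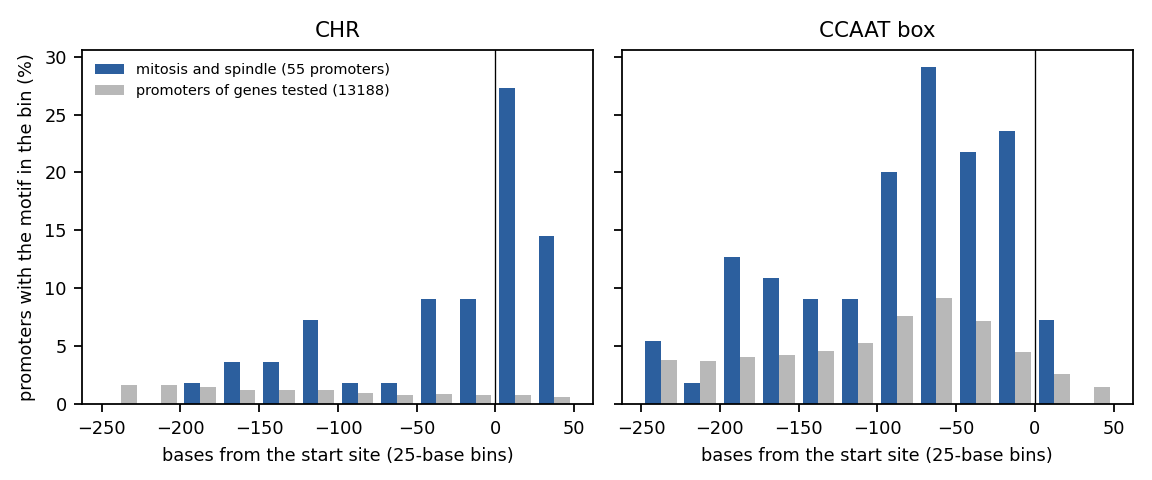
Percent of promoters with the CHR letters (left) or a CCAAT box (right) that start in each 25-base bin, by distance from the start site, for 55 promoters of mitosis and spindle genes (blue) and 13188 promoters of genes tested (grey). The CHR bar is tallest just after the start site, at 27.3% against 0.834%.

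DNA replication and nucleotide synthesis followed, with 40 of 45 genes falling, 0 rising and a median of -1.07. Uhrf1, which copies DNA methylation onto new strands, stood at 16.5 and 15.2 CPM with BMP2 against 83.9 and 72.7 CPM without it (-2.31 ± 0.1, adjusted p = 3.1e-13). Mcm5 and Mcm6, subunits of the replicative helicase, stood at 13.9 and 16.5 against 69.4 and 64.2 CPM and at 44.5 and 45.4 against 112 and 116 CPM. The large subunit of the clamp loader, Rfc1, was not called (-0.15 ± 0.08, adjusted p = 0.133), though it was with library totals as the only scaling (adjusted p = 0.0497). E2F sites stood in 15 of 44 promoters of this list (34.1%), against 3.98% of the promoters of genes tested and 2.26% of all promoters. The 44 promoters cover 37 of the 45 genes.

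Replication-dependent histone genes, transcribed in S phase, fell in 51 of 55 cases and rose in 0, with a median of -1.3. The linker histone gene H1f5 went from 114 and 106 to 28.4 and 30.3 CPM, and H2bc18 from 294 and 275 to 112 and 119 CPM. Many histone genes are near-identical copies of each other, and how shared reads were counted is not given in the sources used here, so their single values are uncertain. Genes of DNA damage repair fell in 23 of 27 cases with 0 rises. Among them Brca1, which repairs breaks by recombination, stood at 15.7 and 16 against 46.1 and 48.9 CPM, and Fanca, of the crosslink repair complex, at 3.15 and 4.01 against 16.8 and 13.5 CPM.

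The switches that let cells into S phase moved less evenly. Of 22 genes for G1 cyclins, their kinases, E2Fs and pocket proteins, 11 fell and 4 rose, with a median of -0.35. Cyclin E genes fell, Ccne1 from 11.6 and 9.97 to 2.61 and 3.31 CPM and Ccne2 from 21.2 and 21.5 to 7.97 and 8.26 CPM. Ccnd1, the cyclin D1 gene through which ERK signals reach the cell cycle, overlapped between the groups at 1570 and 1430 against 1690 and 1520 CPM (-0.1 ± 0.08, adjusted p = 0.358). Myc was likewise not called, at 57.1 and 70.2 against 65.3 and 67.7 CPM. Its relative Mycn rose by 2.31 ± 0.25, from 1.49 and 1.04 to 5.69 and 6.74 CPM, and was the largest rise of this list.

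CDK inhibitor and p53 target genes gave 5 rises and 9 falls among 22. The inhibitor genes Cdkn1b, encoding p27, and Cdkn2b, encoding p15, rose by 0.48 ± 0.08 and 0.83 ± 0.09. They stood at 242 and 249 against 169 and 184 CPM, and at 247 and 255 against 150 and 133 CPM. Cdkn1a, encoding p21 and the best known p53 target, fell instead, from 36.8 and 40.1 to 26.4 and 23.4 CPM (-0.63 ± 0.11), and Mdm2, the ligase gene that limits p53, fell from 3060 and 3460 to 2450 and 2420 CPM. The growth arrest genes Gadd45g and Gadd45b rose by 1.81 ± 0.18 and 1.3 ± 0.11.

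Ribosome biogenesis genes fell in 14 of 28 cases and rose in 0 (median -0.28). Examples are the polyamine enzyme gene Srm at -0.74 ± 0.12 and Nhp2, of the particles that modify ribosomal RNA, at -0.67 ± 0.09. Values of ribosomal protein genes are uncertain, because how shared reads were counted is not given. Rps16 and Rps29, for example, stood at no more than 1.1 CPM in any of the 4 libraries. Ribosomal protein genes themselves gave 3 rises and 1 fall in 76, with a median of -0.04, and 1 rise without inhibitor library 1 or 2. Genes of the ATF4 and endoplasmic reticulum stress programmes fell in 10 of 23 cases and rose in 2, or 1 without BMP2 library 2 or inhibitor library 1. Psat1, of serine synthesis, was at 133 and 143 against 265 and 274 CPM, while the folding regulator Xbp1 rose by 0.44 ± 0.08. Respiratory chain subunits gave 1 rise and 8 falls in 76 (median -0.13), and 16 falls when libraries were scaled by their totals only. That count was 3 without BMP2 library 1 and 3 without inhibitor library 1.

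**Figure D4:**
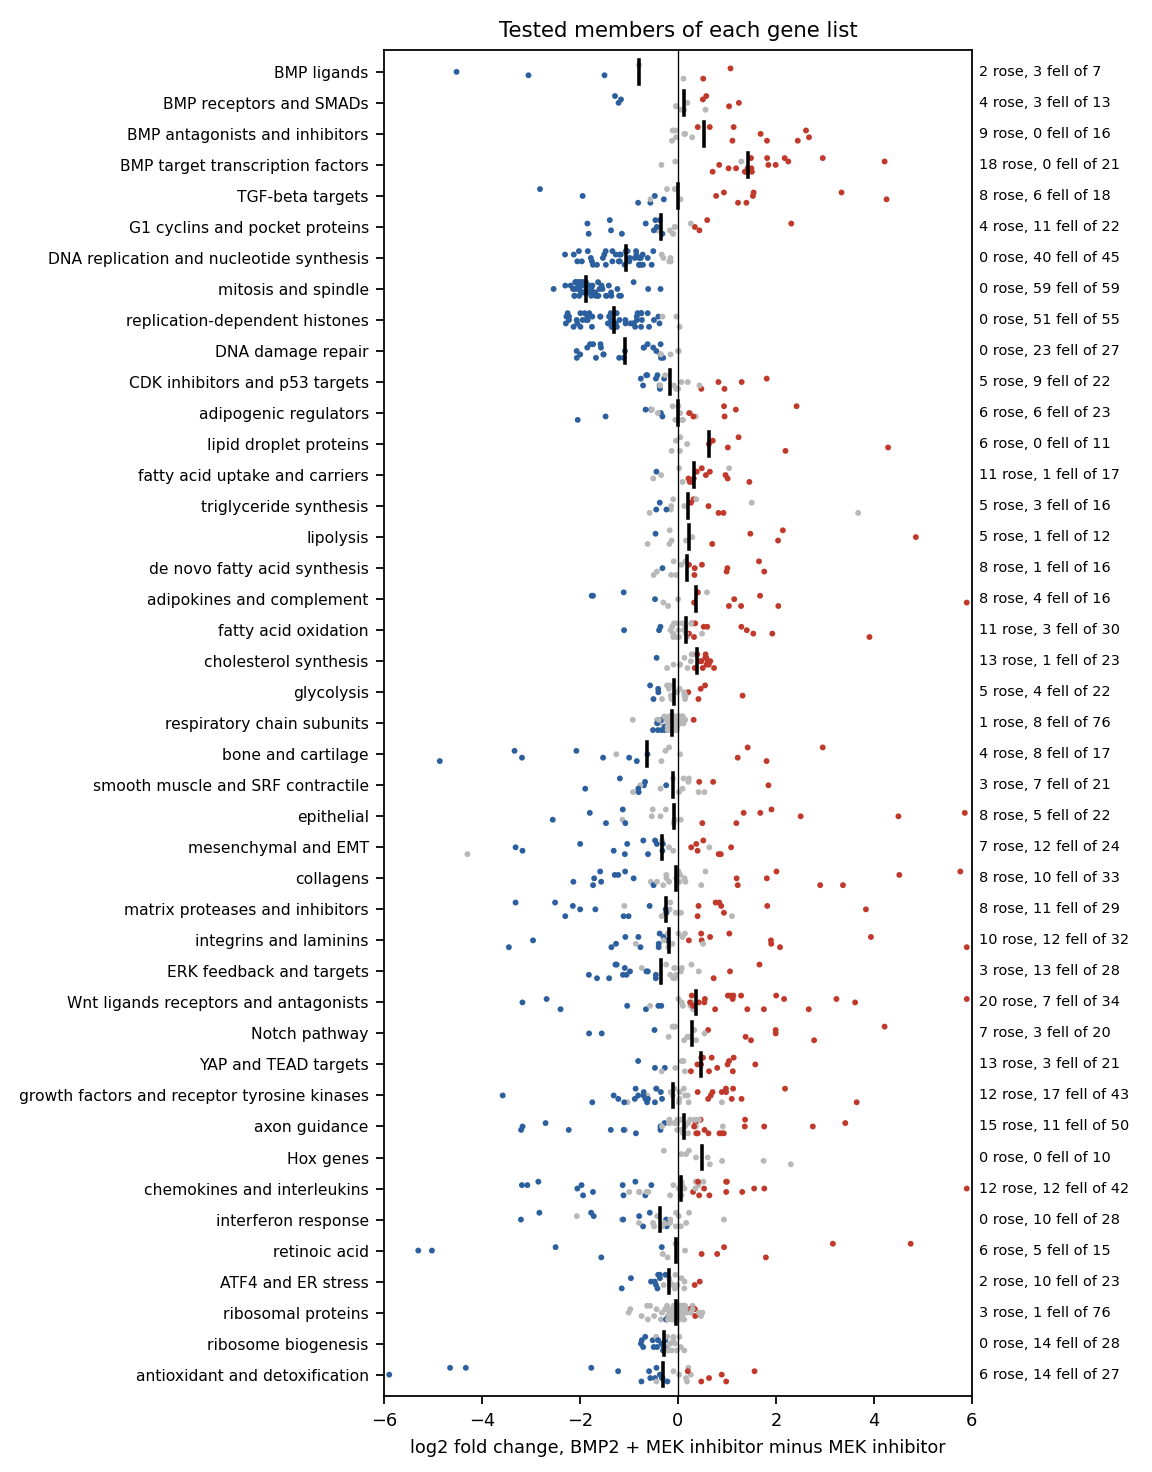
Log2 fold change (BMP2 plus MEK inhibitor minus MEK inhibitor) of the tested members of the BMP lists and of other lists with at least 10 tested members, 1 point a gene, red for rose, blue for fell and grey for not called, with the list's median as a black bar and its counts at the right. Not drawn are the lists of cell type markers and nuclear RNAs and the 4 lists chosen after seeing the data. Values beyond 5.9 either way are drawn at 5.9. All 59 mitosis and spindle genes lie to the left of 0, and no BMP target transcription factor fell.

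Fat cell genes rose in part. The regulators of adipocyte formation gave 6 rises and 6 falls among 23, with a median of 0.01. Pparg (chr6:115360879-115490404), the receptor gene that drives the programme and the target of rosiglitazone, stood at 25 and 25.1 CPM with BMP2, at 12 and 13.9 CPM without it and at 3.14 and 3.94 CPM in untreated cells. Its partner Rxra rose by 0.94 ± 0.08. Cebpa, the other central factor, overlapped between the groups at 72.4 and 98.6 against 86.3 and 73.5 CPM (0.1 ± 0.13, adjusted p = 0.573). Klf15, a late factor of the programme, fell by 2.05 ± 0.38, from 1.81 and 2.08 to 0.335 and 0.581 CPM, and Ebf1, which binds alongside PPARγ, by 0.55 ± 0.07.

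Downstream of these regulators, lipid droplet coat and assembly genes rose in 6 of 11 cases and fell in 0 (median 0.63). Plin1, the coat protein of large droplets, stood at 31.9 and 33.7 against 18.4 and 14.1 CPM, and Plin5 at 1.87 and 1.98 against 0.388 and 0.438 CPM. Cidea, which fuses droplets, was counted 42 times against 2, 22 times as often (5.73 to 188). Of 17 genes for uptake and carriage of fatty acids 11 rose and 1 fell. Fabp4 was at 220 and 187 against 112 and 95.9 CPM and the transporter gene Cd36 at 105 and 93.7 against 49.1 and 49.4 CPM. The 11 rises became 6 without BMP2 library 1, 7 without inhibitor library 1 and 6 without inhibitor library 2. Lpl, the lipoprotein lipase gene, was borderline at 846 and 704 against 661 and 675 CPM (0.21 ± 0.08, adjusted p = 0.0489). Its adjusted p was 0.625 without BMP2 library 1, 0.178 and 0.114 without inhibitor librarys 1 and 2, and 0.0521 by DESeq2.

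Enzymes of fatty acid synthesis rose in 8 of 16 cases and fell in 1. The desaturase gene Scd1 stood at 1610 and 1340 against 767 and 697 CPM (1.01 ± 0.09), and Fasn, the fatty acid synthase gene, at 596 and 639 against 511 and 469 CPM (0.34 ± 0.08). Triglyceride synthesis gave 5 rises and 3 falls in 16, among them rises of 0.93 ± 0.15 for the acyltransferase gene Dgat2 and 0.83 ± 0.1 for Agpat2. The 5 rises became 3 without inhibitor library 2, and the 3 falls became 1 without BMP2 library 2 and 0 without inhibitor library 1.

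Genes for the breakdown of fat also rose in part. Of 12 lipolysis genes 5 rose and 1 fell: Mgll, which finishes triglyceride breakdown, was at 29 and 27.6 against 10.5 and 9.86 CPM, and the lipase gene Pnpla2 at 105 and 111 against 72.8 and 60 CPM. Adora1, an adenosine receptor that restrains lipolysis, had the largest rise of this list, from 0.452 and 0.931 to 20.9 and 20.8 CPM, a log2 fold change of 4.86 that was 5.5 without inhibitor library 2. Fatty acid oxidation genes rose in 11 of 30 cases and fell in 3, the 11 becoming 7 without BMP2 library 1 and 6 without inhibitor library 2. Pdk4, the switch that spares glucose, was counted 133 times against 9, a ratio of 15.5 (7.93 to 34.7). Cholesterol synthesis rose in 13 of 23 cases with 1 fall (median 0.4), among them Cyp51, a demethylase of the sterol ring, at 128 and 123 against 77.6 and 73 CPM.

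Secreted fat cell products and complement genes gave 8 rises and 4 falls in 16. Adipoq, the adiponectin gene, was not raised further, at 20.9 and 21.6 with BMP2 against 26.1 and 22.8 CPM without it (-0.2 ± 0.14, adjusted p = 0.275). Nampt, an enzyme of NAD synthesis that is also secreted, rose by 1.68 ± 0.08, from 251 and 258 to 865 and 764 CPM. Apln, the apelin gene, fell from 72.6 and 64.6 to 22.6 and 17.9 CPM. Il6 was found only with BMP2 among the 4 libraries, at 2.01 and 1.86 CPM against 0 counts, so that the group mean was at least 10.8-fold higher, taking 3 counts in each inhibitor library (0.179 CPM on average) as the floor. Of 7 tested brown and beige adipocyte genes 2 rose and 3 fell, with 1 rise without BMP2 library 2. Dio2, which activates thyroid hormone, fell from 62.2 and 69.3 to 9.58 and 8.72 CPM.

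Bone and cartilage genes did not rise as a group beside Runx2. Of 17 tested 4 rose and 8 fell, with a median of -0.62. Alpl, the phosphatase gene of mineralising cells, stood at 46.5 and 44.8 CPM with BMP2 against 15 and 11.2 CPM without it (1.81 ± 0.13). Spp1, encoding the bone matrix protein osteopontin, lost the most CPM of all genes tested, from 11300 and 11000 to 6800 and 5640 CPM (-0.84 ± 0.09). Tnfrsf11b, which encodes the osteoclast brake osteoprotegerin, fell by 1.53 ± 0.18 and Phex, of phosphate balance, by 2.08 ± 0.22. Sox9, the cartilage factor, was at 74.3 and 75.5 against 87.2 and 91.6 CPM and was not called (-0.26 ± 0.28, adjusted p = 0.54). It was called when only the 4 libraries were fitted (adjusted p = 0.0108), and its untreated control libraries stood at 94.9 and 171 CPM. Dlx5 and Runx2 stand in this list and in the BMP target list.

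Keratin genes moved both ways. Over 22 epithelial genes 8 rose and 5 fell, with a median of -0.08. Krt8 (chr15:101996711-102004342), a keratin of simple epithelia, fell from 274 and 234 to 41.2 and 44.9 CPM (-2.56 ± 0.09, adjusted p = 1.22e-14), and its partner Krt18 from 364 and 322 to 151 and 163 CPM. Krt7, of the same class, fell from 93.5 and 78.3 to 31.1 and 30.8 CPM. Krt14, a basal keratin, went the other way, from 18.4 and 16 to 94.4 and 101 CPM (2.51 ± 0.11), and Krt15, another basal keratin, was counted 291 times against 5, a ratio of 61.1 (25.9 to 190). The fitted log2 fold change of Krt15, 5.86, was 7.18 without inhibitor library 1 and 5.09 without inhibitor library 2. Cdh1, the E-cadherin gene, stood at 18.3 and 15 against 12.7 and 11 CPM and rose by 0.5 ± 0.15 (adjusted p = 0.0137), a call lost without BMP2 library 1 (0.34, adjusted p = 0.181) and without inhibitor library 2 (0.39, adjusted p = 0.129). Both values were below the untreated 36 and 31.7 CPM.

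Mesenchymal genes gave 7 rises and 12 falls among 24. The N-cadherin gene Cdh2 stood at 92.5 and 91.9 against 49.5 and 51 CPM, a rise of 0.87 ± 0.08, and Postn, of the matrix around activated fibroblasts, rose by 1.09 ± 0.13. Vim fell by 0.32 ± 0.08, a call lost without inhibitor library 1 (-0.27, adjusted p = 0.0553). Dcn, encoding the matrix proteoglycan decorin, fell from 16.9 and 17.6 to 1.87 and 1.92 CPM, and the homeobox gene Prrx1 by 1.04 ± 0.11. Smooth muscle and SRF target genes gave 3 rises and 7 falls in 21. Within this list Tpm1 rose by 0.72 ± 0.07 while Tpm2, its sister tropomyosin, fell by 1.19 ± 0.15.

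Genes of the extracellular matrix moved both ways. Of 33 collagen genes 8 rose and 10 fell. Col14a1 (chr15:55307644-55520803), a collagen on the surface of fibrils, had the smallest p of the list, at 213 and 201 CPM with BMP2 against 8.46 and 9.48 CPM without it (4.52 ± 0.1, adjusted p = 1.93e-17). Chains of collagen VI parted: Col6a1 rose from 509 and 398 to 1850 and 1800 CPM and Col6a2 from 38.4 and 31.6 to 260 and 263 CPM, whereas Col6a3, named here after its value was seen, fell by 1.57. Of 29 matrix proteases and inhibitors 8 rose and 11 fell. Mmp11, the stromelysin of tumour stroma, was at 248 and 281 against 75.5 and 74.1 CPM, and Mmp3 at 10.2 and 9.77 against 40.2 and 39.5 CPM. Adamts15 stood at 6.76 and 5.58 against 39.1 and 31.2 CPM, with 1.54 and 2.12 CPM in untreated cells.

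Integrins and laminins split as well, with 10 rises and 12 falls in 32. The laminin chain Lamb3 rose by 3.94 ± 0.25, from 1.49 and 0.876 to 17.9 and 18 CPM, and Itgb5, an integrin that binds vitronectin, by 1.05 ± 0.07. Itgb2, the leukocyte integrin chain, fell from 26.3 and 28.5 to 2.75 and 2.27 CPM (-3.46 ± 0.16). Itgad, a leukocyte integrin α chain, was at 3.88 and 2.33 CPM against 0 counts, so that the group mean was at least 17.3-fold higher by the floor of 0.179 CPM for the inhibitor libraries.

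ERK-responsive genes, already under the inhibitor in both groups, fell in 13 of 28 cases and rose in 3, with a median of -0.35. Egr1, an immediate early gene, was at 2.68 and 3.78 CPM with BMP2, at 7.82 and 9.42 CPM without it and at 20.5 and 28.9 CPM in untreated cells. Etv4 and Etv5, ETS factors induced by ERK, fell by 1.65 ± 0.13 and 1.05 ± 0.1, and the ERK phosphatase gene Dusp4 by 0.98 ± 0.08. Dusp6, another ERK phosphatase gene, missed the threshold at 184 and 173 against 156 and 138 CPM (0.27 ± 0.11, adjusted p = 0.0523) and passed it when only the 4 libraries were fitted (adjusted p = 0.00596). AP-1 subunits parted, with Jun falling from 88.2 and 71.5 to 37.6 and 37.5 CPM and Junb rising from 114 and 89.8 to 261 and 383 CPM. The inhibitor libraries did not lie on 1 side of untreated cells for the genes that fell. Untreated cells had Jun at 36.8 and 36.4 CPM and Etv5 at 50.2 and 49.1 CPM, below both inhibitor libraries. Etv4, at 45.7 and 40.2 CPM in untreated cells, was above both, as was Egr1.

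Wnt pathway genes rose in 20 of 34 cases and fell in 7 (median 0.37). Wnt4 (chr4:137277635-137299501), a ligand with roles in the mammary gland and kidney, stood at 38.4 and 42.2 CPM with BMP2 and at 0.452 and 0.274 CPM without it, a rise of 6.79 ± 0.24 (adjusted p = 8.31e-15). Notum, an enzyme that inactivates Wnts, rose by 2.01 ± 0.11, and the receptors Fzd6 and Lgr4 by 1.02 ± 0.07 and 1.13 ± 0.09. The antagonist Dkk2 fell from 31.5 and 30.9 to 4.35 and 2.62 CPM. Notch pathway genes gave 7 rises and 3 falls in 20: the ligand genes Jag1 and Jag2 rose by 1.38 ± 0.1 and 2 ± 0.32, while the feedback gene Nrarp fell by 1.82 ± 0.37. The Jag2 value was 2.67 without inhibitor library 1.

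YAP and TEAD targets rose in 13 of 21 cases and fell in 3 (median 0.47), with Ankrd1 at 185 and 169 against 80.4 and 91.6 CPM and Amotl2 at 365 and 429 against 188 and 206 CPM. Among the 3 falls was Ccn2, also given above with the TGF-β genes, at -0.81 ± 0.08. Ccn1, which passed at 1.58 ± 0.39 (adjusted p = 0.0269), lost its call without each of the 4 libraries in turn (adjusted p = 0.0579 to 0.13). The 3 falls became 1 without BMP2 library 2 or inhibitor library 2.

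Growth factor and receptor tyrosine kinase genes gave 12 rises and 17 falls in 43. Receptors for fibroblast growth factors rose, Fgfr2 from 12.6 and 16 to 64.1 and 66.6 CPM and Fgfr3 from 0.452 and 0.438 to 6.03 and 5.35 CPM. Fgf1, a ligand for them, fell from 4.33 and 6.19 to 0.335 and 0.523 CPM. Pdgfrb, the platelet-derived growth factor receptor of mesenchymal cells, fell by 1.31 ± 0.08 and Met, the hepatocyte growth factor receptor, by 0.87 ± 0.07. Among 50 axon guidance genes 15 rose and 11 fell. The netrin receptor gene Unc5b went from 97.5 and 86.8 to 921 and 1050 CPM (3.42 ± 0.09), and its ligand gene Ntn1 fell from 185 and 170 to 22 and 17.4 CPM (-3.18 ± 0.11). Falls in this list became 7 without BMP2 library 1.

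Retinoic acid genes gave 6 rises and 5 falls in 15, with large changes both ways. The retinoic acid carriers Crabp1 and Crabp2 fell, from 52.6 and 35.7 to 1.74 and 0.988 CPM and from 76.3 and 73.1 to 13.1 and 13.3 CPM. Cyp26b1, which degrades retinoic acid, rose from 4.33 and 3.45 to 33.5 and 35.9 CPM, and Aldh1a1, which makes it, from 9.63 and 10.5 to 40.6 and 29.4 CPM. The receptor gene Rarb was counted 2 times against 93, a ratio of 0.0226 (0.00269 to 0.0839), and its fitted log2 fold change of -5.31 was -8.47 without BMP2 library 1 and -4.29 without BMP2 library 2.

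Interferon response genes fell in 10 of 28 cases and rose in 0 (median -0.37). Oasl2, an antiviral factor, stood at 1.27 and 1.34 against 4.01 and 4.93 CPM and the peptide transporter gene Tap2 at 11.2 and 12.3 against 28.6 and 22.8 CPM. Ifit2, an interferon-induced antiviral gene, fell by 1.72 ± 0.12. Chemokine and interleukin genes gave 12 rises and 12 falls in 42. Cxcl12, which holds stem and immune cells in place, rose from 256 and 258 to 876 and 872 CPM (1.76 ± 0.07), whereas Ccl9 fell from 16.4 and 16.5 to 4.29 and 3.66 CPM. Hox genes, which record position along the body, gave 0 calls among 10 by edgeR and by DESeq2, with 1 rise at an unadjusted p under 0.05 and a median of 0.49.

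The largest single changes by fold lay mostly outside these lists. Disp3 (chr4:148236433-148288196) had 0 counts without BMP2 and stood at 16.4 and 17.2 CPM with it, so that the group mean was at least 93.7-fold higher by the floor of 0.179 CPM for the inhibitor libraries. Ccr7, the chemokine receptor that guides immune cells to lymph nodes, was counted 180 times against 1, 189 times as often (33.5 to 7.5e+03), and the tetraspanin gene Tspan18 451 times against 4, a ratio of 118 (45.9 to 436). The fitted log2 fold change of Ccr7 was 7.22, and 9.47 without inhibitor library 1 and 6.27 without inhibitor library 2. Smoc2, a secreted calcium-binding matrix protein, rose from 2.33 and 2.52 to 85.2 and 107 CPM (5.3 ± 0.16), and the catenin gene Ctnnd2 from 0.905 and 1.04 to 37.6 and 37.7 CPM (5.26 ± 0.21). In untreated cells these genes were low as well, Smoc2 at 4.87 and 5.12 CPM and Ctnnd2 at 0.616 and 1.19 CPM.

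On the falling side Inmt (chr6:55170627-55174990), a methyltransferase of small amines, stood at 2.88 and 1.28 CPM with BMP2 against 176 and 175 CPM without it and 505 and 453 CPM in untreated cells. Its log2 fold change was -6.43 ± 0.19 (adjusted p = 5.59e-12), and -7.1 without BMP2 library 1. Pi15, a peptidase inhibitor gene, was counted 9 times against 1046, a ratio of 0.00903 (0.00412 to 0.0172), and its fitted log2 fold change of -6.74 was -7.41 without BMP2 library 1. Slc6a2 (chr8:92960470-93001667), the noradrenaline transporter gene, fell from 186 and 188 to 7.5 and 7.21 CPM (-4.67 ± 0.09, adjusted p = 1.55e-18). The water channel gene Aqp1 fell from 531 and 453 to 31.5 and 24.5 CPM (-4.14 ± 0.12), and the iron carrier gene Trf from 37.2 and 39.3 to 2.01 and 1.1 CPM.

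By absolute gain the leading called coding gene was Ctsd (chr7:142375910-142387827), the lysosomal protease cathepsin D, at 8030 and 8170 CPM with BMP2 against 2450 and 2210 CPM without it and 2230 and 1980 CPM in untreated cells (1.8 ± 0.08, adjusted p = 3.96e-13). Prss23, a secreted serine protease, followed from 722 and 710 to 3060 and 3070 CPM, and Igfbp4, which binds insulin-like growth factors, from 1510 and 1330 to 3020 and 3180 CPM. Thbs1, the matrix protein thrombospondin, and Myh9, the heavy chain of nonmuscle myosin, rose by 0.66 ± 0.08 and 0.5 ± 0.09. Besides Spp1, the called genes with the greatest losses among those with a symbol were Ahnak, a giant scaffold protein, from 10400 and 11200 to 7450 and 6720 CPM, and Lgals1, encoding galectin, from 1790 and 1670 to 773 and 783 CPM. The arrestin-domain gene Arrdc3 fell from 927 and 1000 to 332 and 270 CPM.

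**Figure D5:**
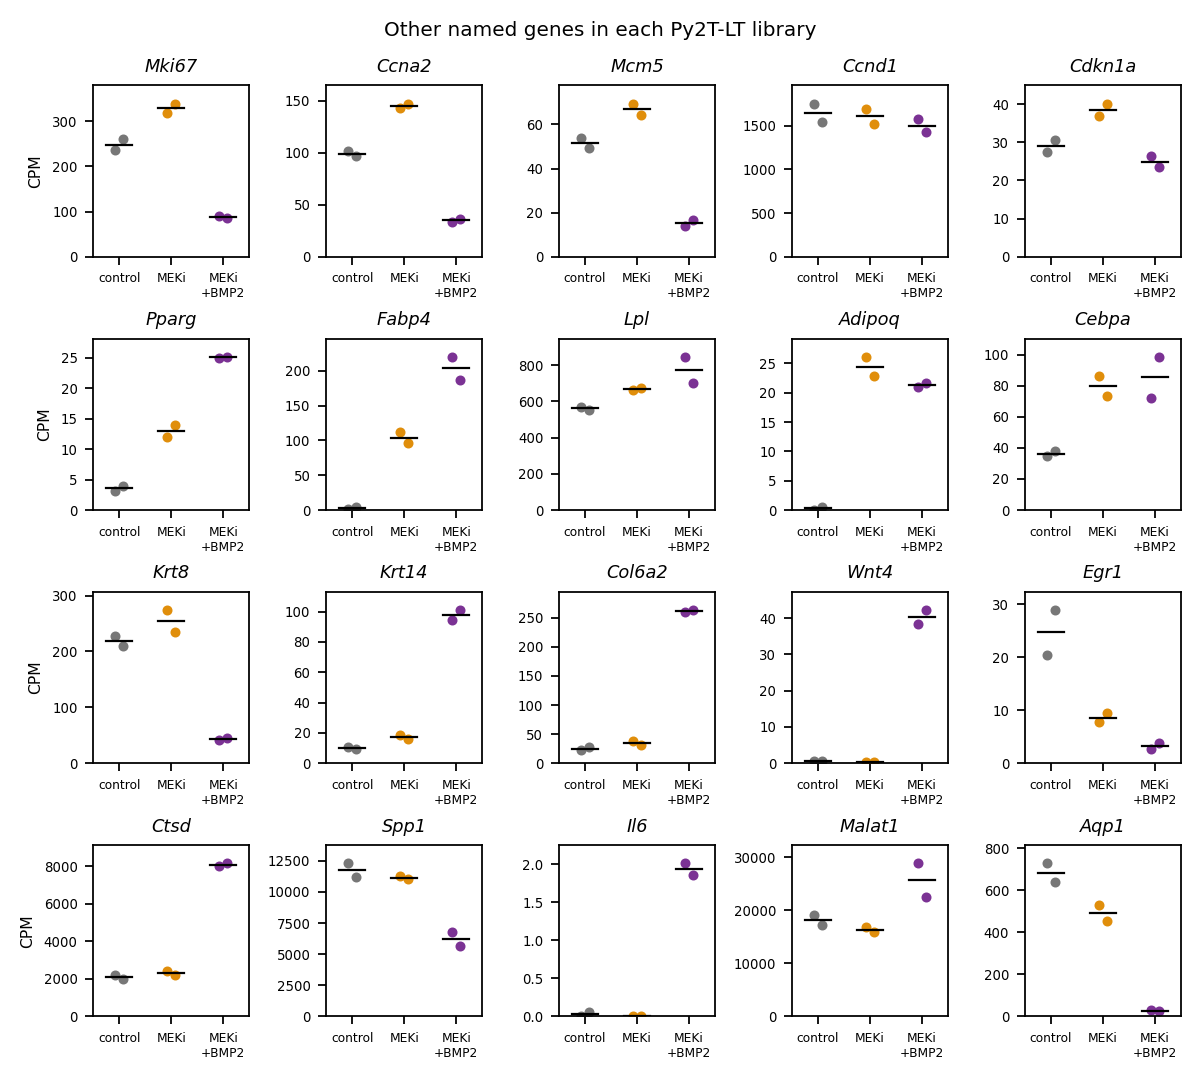
CPM of 20 other named genes by Py2T-LT library, 1 point each, with a black line at the mean of the 2 libraries, for untreated controls, MEK inhibitor (MEKi) and MEK inhibitor with BMP2; each axis starts at 0 and has its own scale. Mki67 is lowest with BMP2, Pparg is highest with BMP2, and the Ccnd1, Adipoq and Cebpa levels with and without BMP2 were not called different.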

How the data were processed

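The authors deposited 1 table of raw counts, whole numbers for 10 RNA libraries and 18103 rows named by NCBI gene ID. Per the submitters' processing notes, the authors used STAR and the genome mm10. Not given in the sources used here are the STAR version, the counter and its settings for strand and shared reads, and the annotation. Gapdh, a gene with many near-identical copies, stood at only 0.871 to 1.51 CPM in the 4 libraries compared. Symbols, coordinates and promoters came from RefSeq on GRCm38.p6, the assembly of mm10, which named 18057 rows. The 46 rows without a symbol (0.799% of counts) were tested with the rest. The table has 0 rows for mitochondrially encoded genes.

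Counts were fitted in R 4.3.3 with edgeR 4.0.16 (filterByExpr, TMM, robust glmQLFit, glmQLFTest) over all 10 libraries with 1 mean for each of 5 groups, which left 5 residual degrees of freedom and a common biological coefficient of variation of 7.07%. On simulated counts for 12830 genes the steps recovered 90% of 2-fold and 99% of 4-fold changes in this comparison, with 12 unchanged genes called. Only 100 genes were changed at each fold, all with a mean over 1 CPM. The simulated spread was the fitted one, and the groups differed in no other gene. Recovery at lower levels, or with as many changes as in the real data, was thus not measured. Replicates differed beyond counting noise (chi-square per gene 7.25 with BMP2 and 5.39 without), which does not by itself show that they are independent. Each counts as a sample because the protocol gives 2 independent experiments. A fold against 0 counts is a bound on the ratio of group means, with 3 counts in each library of the group at 0, and a group with 1 to 9 counts gets a ratio with an exact 95% conditional interval. Neither covers more than counting error, because reads lacking molecular identifiers may be copies of 1 molecule.

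Members and 49 gene lists were chosen with earlier results of these data known, and 4 further lists after seeing the data. Lists are described by counts and medians without a test. Named genes are the 12 largest rises and falls by fold with a mean of at least 2 CPM, the 8 largest each way by CPM, up to 5 members per list by p with its extremes, 27 fixed genes, and up to 5 genes each way with 0 counts in a group. Other scalings, filters, sets of libraries, a replicate block, DESeq2 1.42.0 and leaving out each library were tried as alternatives. Some single-gene results are not reported here.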

Additional observations from a re-analysis of the deposited data

How the results depend on the processing

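The number of genes called was 4908, and it was 4908 with RLE size factors, 4924 with library totals only, 5072 without a count filter, 5127 and 4700 with only the 4 or the 6 Py2T-LT libraries fitted and 4118 by DESeq2. Leaving out 1 of the 4 libraries gave 3837 to 4005, with fewer residual degrees of freedom and the lone library assumed to vary like the other groups. Rises of more than 1 on the log2 scale numbered 575 to 704 and falls 823 to 935 over these settings, with 618 to 644 and 832 to 866 without 1 library. Rises without 1 library numbered 1773 to 1894 and falls 2016 to 2147. Replicate numbers did not pair the libraries: deviations of same-numbered libraries correlated at -0.04 between the groups compared, and at -0.11 to 0.1 over group pairs. With the replicate number as a block the calls were 5024 over all libraries and 4447 over the 4 compared. No named gene changed direction while called. Of 282 named genes called, 24 lost the call under some alternative, and 258 kept it under every alternative that tested them. Some named genes did not pass the count filter when fewer libraries were fitted and were not tested there. With library totals only, 1960 of the calls were rises and 2964 falls, against 2356 and 2552. Calls were lost without 1 or more of the libraries both in genes of few counts, such as Bmpr1b, Tek and Aqp7, and in genes of many, such as Ccn1 and Lpl, and the cause was not tested. At under 3 counts per library, or 0.201 CPM, a gene counts as not detectable at this depth.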

Other observations

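Lysosomal genes were listed after Ctsd had been seen to gain more CPM than any other coding gene, so their counts describe these libraries only. Of 52 tested lysosomal enzymes and membrane proteins 10 rose and 22 fell, with a median log2 fold change of -0.09. Ctsd was the largest rise at 1.8, followed by the sulfatase gene Ids at 0.69, from 68.7 and 74.1 to 121 and 109 CPM. Other cathepsin genes fell: Ctsl from 448 and 426 to 256 and 239 CPM, and Ctsb from 1570 and 1390 to 1220 and 1160 CPM. Lamp1, the main membrane protein of lysosomes, fell from 959 and 942 to 764 and 779 CPM, while Lamp2 rose from 647 and 659 to 795 and 706 CPM. The 22 falls became 14 without BMP2 library 2 and 12 without inhibitor library 1, and the 10 rises became 5 without inhibitor library 2.

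Subunits of the proton pump that acidifies lysosomes gave 3 rises and 2 falls in 18, with a median of 0. Cytosolic tRNA synthetase genes fell in 11 of 20 cases and rose in 0 (median -0.22), a count of 6 without BMP2 library 1 and 7 without inhibitor library 2. Proteasome subunits fell in 10 of 37 cases and rose in 0 (median -0.18), and in 18 with library totals only. Without 1 library their falls ran from 2 to 6, and with the replicate block over the 4 libraries they were 4. All 3 lists were also chosen after seeing the data.

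Antioxidant and detoxification genes fell in 14 of 27 cases and rose in 6, with a median of -0.32. Beside Inmt, the cytochrome P450 gene Cyp2f2 fell from 31.1 and 33.1 to 1.41 and 1.74 CPM. Members of the glutathione and thioredoxin systems moved both ways: Gclm and Txnrd1 rose by 0.89 and 0.63, and Mgst1, a membrane glutathione transferase, from 37 and 38.3 to 117 and 106 CPM, while Gclc, the catalytic partner of Gclm, fell by 0.47. Of 22 glycolysis genes 5 rose and 4 fell, with 3 rises without BMP2 library 2 or inhibitor library 1. The glucose transporter gene Slc2a1 fell from 76.2 and 68.3 to 47.7 and 49.5 CPM.

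Calls were spread over the chromosomes, with medians from -0.06 to 0.08. The share of tested genes that rose was lowest on chromosome 17, at 10.2% of 645, and highest on chromosome 6, at 24.8% of 634. Of 436 long noncoding RNA genes tested, 39 rose and 41 fell, against 2298 and 2493 of 12444 protein-coding genes.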
